A study of Rattus norvegicus with 4 samples.

Results

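The genes described here encode the cannabinoid receptor of the brain (Cnr1), the opioid receptors (Oprm1, Oprd1 and Oprk1), the related nociceptin receptor (Oprl1), and the enzymes that make endocannabinoids (Dagla, Daglb and Napepld) or break them down (Mgll and Faah). They were chosen by name, as the receptors and enzymes of these signalling systems, and not by a measured value. Earlier results of these data were known when the choice was made. Of 10 listed genes, 9 were matched to a probe, among 15443 named genes on the array, and they carried 15 probes in all. Faah, which breaks down anandamide, was not matched. Well above background on all 4 arrays, and therefore tested, were 7 genes. Oprm1 was well above background on 3 arrays and Oprk1 on 0.

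Endocannabinoids are lipid messengers made on demand in the postsynaptic neuron. They travel back across the synapse to Cnr1 on the axon terminal, where they lower transmitter release. Diacylglycerol lipases (Dagla, Daglb) make 2-arachidonoylglycerol and monoacylglycerol lipase (Mgll) removes it, whereas Napepld makes anandamide. Opioid receptors and the nociceptin receptor couple to the same inhibitory Gi/o proteins as Cnr1 and answer peptides cut from the precursors of Penk, Pdyn, Pomc and Pnoc. In the cerebellum Cnr1 is known from the parallel fibres of granule cells, and in the cerebral cortex from the terminals of cholecystokinin interneurons.

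RNA came from male rats, described as normal and put through the forced swimming test. Long immobility in water is read there as depressive-like behaviour. Of 106 rats scored, 50 were killed 1 week later under isoflurane and perfused with cold saline. Rats with depressive-like scores formed 1 group and rats with average scores, called control, the other. From each, slices 1 mm thick were taken of the cerebellum (9.8 to 10.8 mm behind the bregma) and of the prefrontal cortex (3.2 to 4.2 mm in front of it). The 4 groups were therefore depressive cerebellum, control cerebellum, depressive prefrontal cortex and control prefrontal cortex, each measured on 1 single-colour array with 1 RNA pool of 4 rats. A control here is a rat with an average score and not one left out of the test. The labels do not give strain or age, nor whether the cerebellum and prefrontal cortex pools came from the same rats.

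Each signal is given as a percentage of its own array's 75th percentile, which was 4369.5 for depressive cerebellum, 4020 for control cerebellum, 3278 for depressive prefrontal cortex and 3116 for control prefrontal cortex. Between 22201 and 23759 of 30367 probes were well above background on an array. All 4 arrays lay on 1 slide, and their number limits the precision. The scanner files linked to the depressive cerebellum and control prefrontal cortex samples matched each other's column of the deposited value table, which is keyed by sample, at a correlation across probes of 0.99989 or more, and their own column at 0.933. The table was followed. With the files taken as linked, the tissue and state comparisons change places, and those values are given beside each comparison. On the arrays as read here, all 10 markers of cerebellar granule and Purkinje neurons were higher in cerebellum (limma fit described next), with summed levels of 17173% and 18452% on the depressive and control cerebellum arrays and 514% and 550% on the depressive and control prefrontal cortex arrays. All 6 tested markers of cortical projection neurons were lower in cerebellum.

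The first comparison set cerebellum against prefrontal cortex over both states. Cnr1 was 2.29-fold higher in cerebellum. Oprl1 was 3.82-fold, Mgll 3.48-fold, Napepld 1.93-fold and Dagla 1.27-fold lower there. Oprd1 and Daglb did not pass the test. These calls come from a limma fit of tissue with state as a block over 11623 genes, in which a gene was called at a Benjamini-Hochberg adjusted p under 0.05. The fit has 2 arrays per tissue and 1 residual degree of freedom. A gene's own error in it is how far its tissue difference differs between the 2 states. That error is pooled with a variance shared across all tested genes (2.40 prior degrees of freedom). The SEs and p-values are therefore not the gene's own spread alone, and they measure no spread beyond these arrays. It called 72.8% of all tested genes, 34.7% higher and 38.0% lower in cerebellum, and 5 of 7 genes called here is a share close to that of all genes. Which direction held more genes depended on the scaling: 4037 were higher and 4421 lower here, against 4888 and 3764 under quantile normalization and 4730 and 3793 under median scaling. The median difference of the 7 genes was -0.34 on the log2 scale, and that of all tested genes -0.02. With the scanner files taken as linked, 0 of 7 were called, and 0 genes in all.

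Cnr1, which encodes the main cannabinoid receptor of neurons, had signals of 342% in depressive and 360% in control cerebellum, against 150.5% in depressive and 156% in control prefrontal cortex. Both cerebellum arrays lay above both prefrontal cortex arrays, and the 8 or 9 repeated spots on each array did not bridge the gap: the lowest cerebellum spot stood at 333% and the highest prefrontal cortex spot at 161%. The log2 difference was 1.20 (SE 0.05, 95% interval 1.05 to 1.34, limma adjusted p = 0.000621). Of all tested genes, 93.8% had a smaller or more negative tissue difference. A second Cnr1 probe gave the same order, 1.88-fold higher in cerebellum of depressive rats and 2.19-fold higher in that of control rats. With files as linked the difference was 0.06.

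Oprm1 encodes the mu receptor, the main target of morphine. Its brightest probe gave 0.491% in depressive cerebellum, which was not well above background, and 0.696% in control cerebellum, against 1.03% in depressive and 0.897% in control prefrontal cortex. The cerebellum arrays lay below the prefrontal cortex arrays, by at least 2.10-fold in depressive rats and 1.29-fold in control rats, but the 2 spots of this probe differed by more than that on some arrays, with signals of 14.1 and 32.6 in depressive cerebellum. Its other probes, made to 2 other transcripts of the gene, were not well above background on either cerebellum array. In prefrontal cortex they were. Relative to it they were at least 2.67-fold lower in cerebellum of depressive rats, and at least 4.42-fold and 4.98-fold lower in that of control rats. Oprm1 did not enter the fit, because 1 array was not well above background. Without that filter its difference was -0.72 (limma adjusted p = 0.133).

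Oprd1, the gene of the delta receptor, gave 7.47% in both depressive and control cerebellum, against 7.89% in depressive and 6.91% in control prefrontal cortex. The cerebellum values lay between the prefrontal cortex values. The log2 difference was 0.02 (95% interval -0.20 to 0.23, limma adjusted p = 0.850), and its sign changed between normalizations, which gave -0.04 to 0.11. Oprk1, the gene of the kappa receptor, had 0.167% and 0.129% on the depressive and control cerebellum arrays and 0.271% and 0.190% on the depressive and control prefrontal cortex arrays. It was not well above background on any of them, and no fold is given. Fitted without the background filter, Oprk1 had a difference of -0.63 (limma adjusted p = 0.0287), on signals of 5.19 to 8.89 where the median of the negative control spots was 4.00 to 6.99.

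Oprl1 encodes the receptor of nociceptin, a peptide related to the opioids. It gave 13.5% in depressive and 13.4% in control cerebellum, against 51.2% in depressive and 51.4% in control prefrontal cortex. The groups were far apart relative to the 9 or 10 repeated spots: the highest cerebellum spot stood at 14.3% and the lowest prefrontal cortex spot at 48.5%. The log2 difference was -1.93 (SE 0.05, 95% interval -2.08 to -1.79, limma adjusted p = 0.000293), and 4.50% of all tested genes had a more negative one. Dimmer probes of Oprl1 pointed the same way with other sizes. One was 3.26-fold lower in cerebellum of depressive rats and 1.87-fold lower in that of control rats, the other 3.39-fold and 2.91-fold lower. With files as linked the difference of Oprl1 was -0.001.

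**Figure D1:**
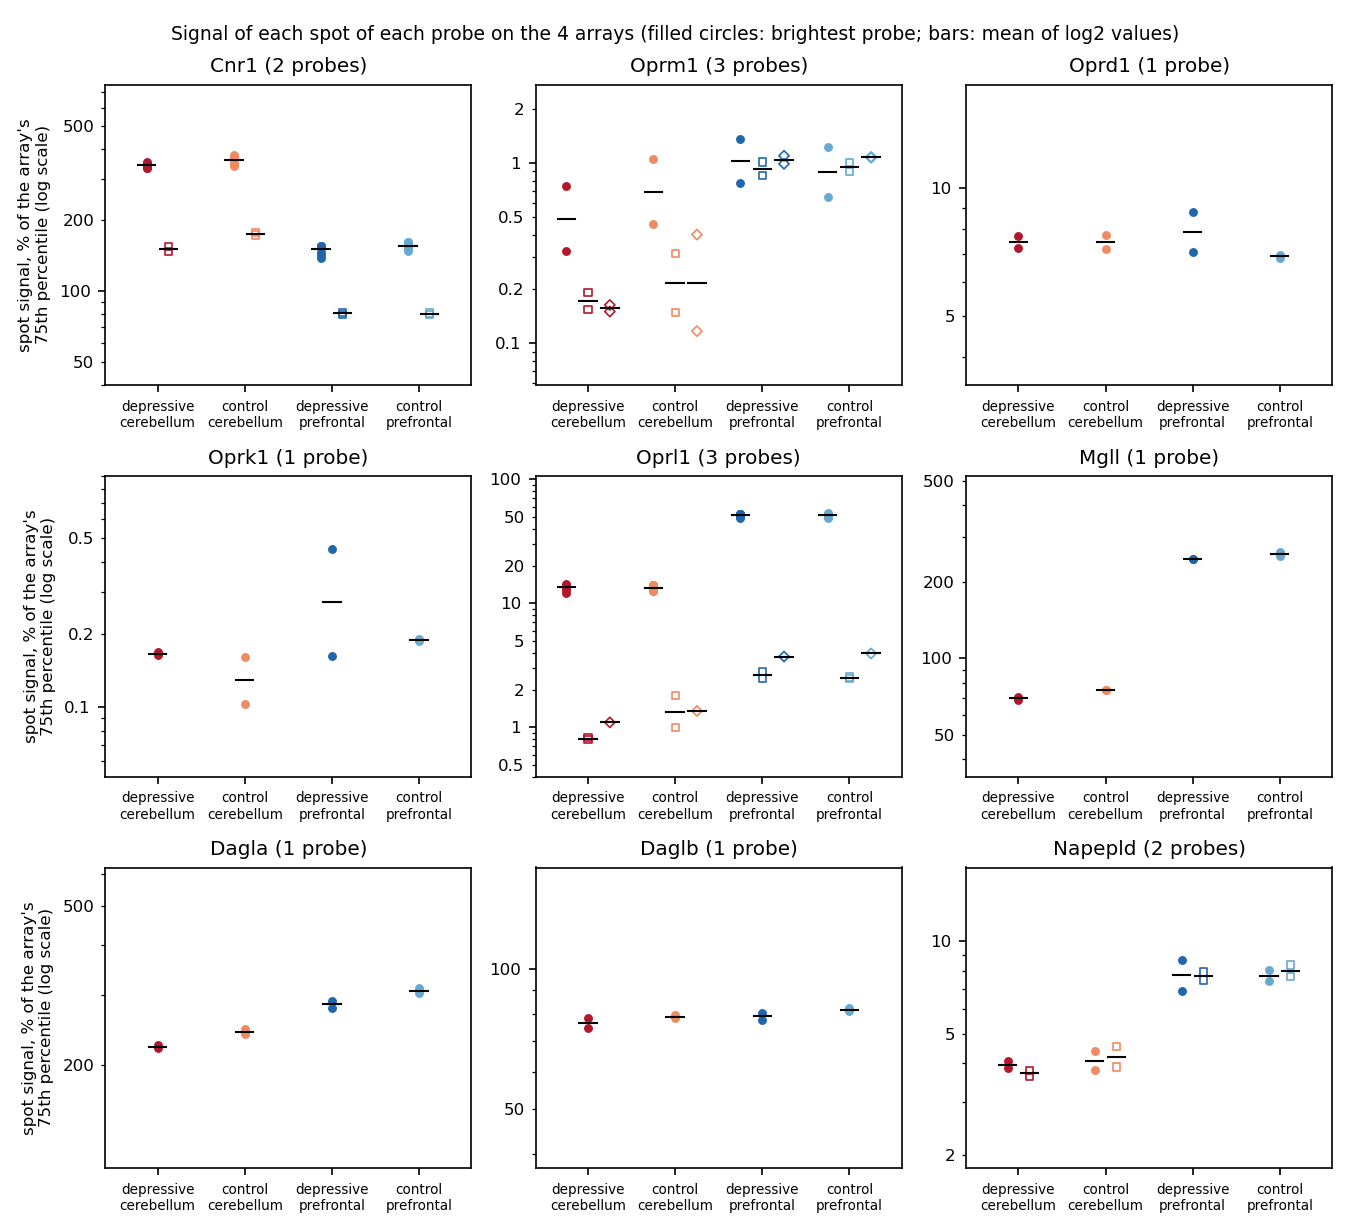
Signal of every spot of every probe for the 9 matched genes, as a percentage of the array's 75th percentile on a log axis, for depressive and control cerebellum and depressive and control prefrontal cortex; filled circles are the brightest probe, open symbols the others, and bars the mean of log2 values. Probe by probe, Cnr1 spots lie higher in cerebellum than in prefrontal cortex (333% or more against 161% or less for the brightest probe), Oprl1, Mgll and Napepld spots lie lower there, and Oprd1 and Daglb overlap.

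Of the synthetic enzymes, Dagla is the lipase that supplies most 2-arachidonoylglycerol at adult synapses. It gave 223% in depressive and 243% in control cerebellum, against 284% in depressive and 307% in control prefrontal cortex. The cerebellum arrays were the lower in both states, without overlap, and the log2 difference was -0.34 (SE 0.05, 95% interval -0.49 to -0.20, limma adjusted p = 0.00784). A more negative difference was found in 30.6% of all tested genes. Without the control prefrontal cortex array, in a fit that then has no block, the difference was -0.29 and no longer passed (limma adjusted p = 0.0699). Daglb, the second diacylglycerol lipase, gave 76.5% and 79.0% in depressive and control cerebellum and 79.1% and 81.8% in depressive and control prefrontal cortex. Its log2 difference was -0.05 (95% interval -0.19 to 0.10, limma adjusted p = 0.415), and its sign also changed between normalizations, which gave -0.05 to 0.04. The difference between the 2 lipases' tissue differences was not tested.

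Napepld makes anandamide and related lipid amides from membrane phospholipids. It gave 3.96% in depressive and 4.08% in control cerebellum, against 7.75% in depressive and 7.73% in control prefrontal cortex, again without overlap. The log2 difference was -0.95 (SE 0.05, 95% interval -1.10 to -0.80, limma adjusted p = 0.000957). The SE between spots was larger than the SE of the fit, at 0.19 for the difference in depressive and 0.16 in control rats. Its second probe was 2.08-fold lower in cerebellum of depressive rats and 1.91-fold lower in that of control rats.

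Mgll, which ends the signal of 2-arachidonoylglycerol, gave 69.5% in depressive and 74.9% in control cerebellum, against 246% in depressive and 257% in control prefrontal cortex. Every cerebellum spot lay below every prefrontal cortex spot, the lowest of which stood at 245%. The log2 difference was -1.80 (SE 0.05, 95% interval -1.95 to -1.65, limma adjusted p = 0.000338), and 5.18% of all tested genes had a more negative one. With files as linked, Mgll, Dagla and Napepld had tissue differences of 0.09, 0.12 and 0.02, none past the test. In slices of whole tissue, fewer cells that carry a transcript and less of it per cell cannot be told apart.

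The promoters of Mgll and Napepld, the endocannabinoid enzyme genes with the larger tissue differences, are shown because both genes were lower in cerebellum. Each is the 250 bases before the gene's start, 5′ to 3′, from RefSeq's annotation of the assembly GRCr8 (the array files name rn4), with GC boxes (GGGCGG or, on the other strand, CCGCCC) and CCAAT boxes (CCAAT or ATTGG) in capitals.
Mgll, chr4:122749186-122749435, plus strand: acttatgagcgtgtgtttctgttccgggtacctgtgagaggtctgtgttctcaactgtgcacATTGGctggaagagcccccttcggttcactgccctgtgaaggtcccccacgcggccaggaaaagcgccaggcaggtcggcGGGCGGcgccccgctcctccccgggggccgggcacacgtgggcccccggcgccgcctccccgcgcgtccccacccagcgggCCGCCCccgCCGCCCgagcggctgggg
Napepld, chr4:14253010-14253259, plus strand: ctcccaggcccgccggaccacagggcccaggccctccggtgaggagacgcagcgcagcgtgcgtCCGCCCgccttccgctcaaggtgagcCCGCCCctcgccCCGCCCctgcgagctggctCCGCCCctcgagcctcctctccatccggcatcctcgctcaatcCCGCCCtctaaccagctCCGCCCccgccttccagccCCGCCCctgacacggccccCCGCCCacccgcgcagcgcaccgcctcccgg
The Mgll window held 3 GC boxes and 1 CCAAT box, and the Napepld window 8 GC boxes and 0 CCAAT boxes. Neither held the letters TATAAA or their reverse complement. A GC box was present in 30.5%, a CCAAT box in 34.0% and TATAAA in 12.9% of all 33469 promoter windows of this length. Both windows were rich in G and C, at 72.4% for Mgll and 77.2% for Napepld, against a median of 51.2% over all windows, and held 26 and 29 CpG sites against a median of 5. Windows of 2 genes that did not pass the tissue test differed from each other in the same features: that of Oprd1 held 4 GC boxes, and that of Daglb 0 GC boxes and 1 TATAAA. A match describes the letters of the window and nothing of what binds there.

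Within each state, the tissue differences of the tested genes were close to each other, as far as 1 array per group can show and with no test. Cnr1 had a log2 difference of 1.18 in depressive and 1.21 in control rats, Oprl1 of -1.93 and -1.94, Mgll of -1.82 and -1.78, and Napepld of -0.97 and -0.92. Dagla had -0.35 and -0.34, and Daglb -0.05 in both. Oprd1 had -0.08 in depressive and 0.11 in control rats, with SE between spots of 0.16 and 0.13. At 2-fold or more, 4 of 8 genes differed in depressive rats, Oprm1 among them as a bound, and 3 of 8 in control rats. Of all genes, 23.7% did so in depressive and 24.0% in control rats.

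**Figure D2:**
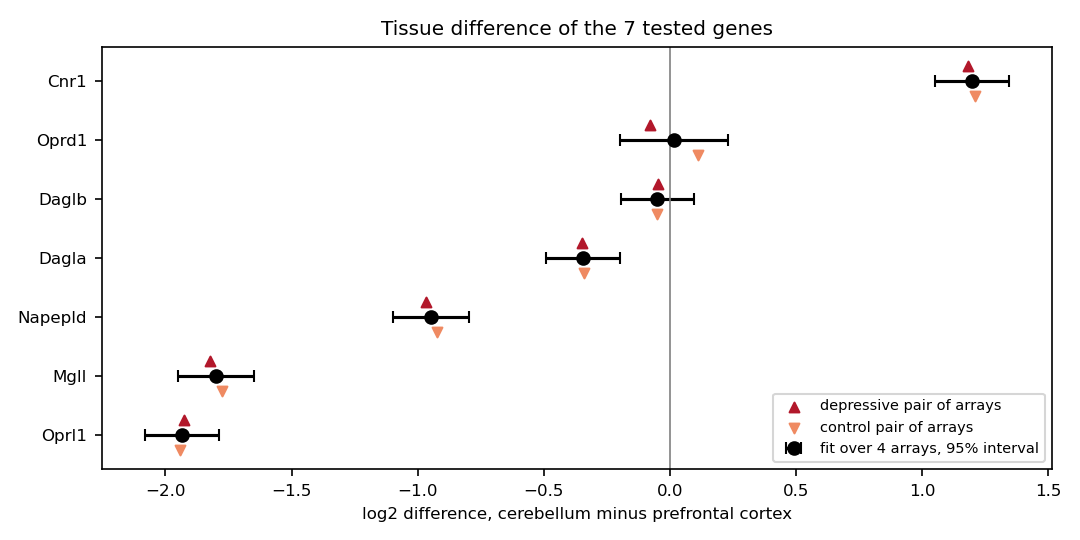
Tissue difference (cerebellum minus prefrontal cortex, log2) of the 7 tested genes, with triangles for the depressive and the control pair of arrays and circles with bars for the fitted difference over 4 arrays and its 95% interval. Cnr1 lies at 1.20, Daglb and Oprd1 near 0, and Dagla, Napepld, Mgll and Oprl1 between -0.34 and -1.93.

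Other genes of these pathways were read from lists chosen by name, also with earlier results of these data known. Of 17 further endocannabinoid genes, 15 were matched and 14 tested: 3 were higher in cerebellum, 7 lower and 4 not called, with a median of -0.25. Plcb1, a phospholipase that makes the substrate of the diacylglycerol lipases in forebrain neurons, had 36.1% and 37.2% in depressive and control cerebellum against 220% and 215% in depressive and control prefrontal cortex, a log2 difference of -2.57 (limma adjusted p = 0.000245). Its relative Plcb4, the isoform of many cerebellar Purkinje cells, had 37.4% and 36.6% against 11.7% and 9.78% in the same order, a difference of 1.79 (limma adjusted p = 0.000692). The related Plcb3 was also higher in cerebellum (log2 difference 1.17), and Fabp5, a fatty acid binding protein that carries anandamide inside cells, was lower (log2 difference -1.40). The phospholipases of this list therefore did not move one way. Cnr2, the cannabinoid receptor of immune cells, was lower in cerebellum (log2 difference -0.93, SE 0.07, limma adjusted p = 0.00182). Its SE between spots was larger, at 0.40 for the difference in depressive and 0.23 in control rats. Of 6 microglia markers, 5 were lower in cerebellum as well, with summed levels of 542% and 528% in depressive and control cerebellum against 1172% and 1184% in depressive and control prefrontal cortex. Their part in the Cnr2 value was not tested.

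The 11 genes of the opioid peptide list, precursors and the enzymes that cut or degrade them, were all tested. In cerebellum 2 were higher, 7 lower and 2 not called, with a median of -0.47. Pdyn, the precursor of the dynorphins that act on the kappa receptor, had 1.58% in depressive and 0.826% in control cerebellum, against 55.4% in depressive and 61.6% in control prefrontal cortex. The tissues did not overlap, and the log2 difference was -5.67 (SE 0.30, limma adjusted p = 0.000944). Pnoc, the precursor of nociceptin and so the ligand gene of Oprl1, was lower in cerebellum together with its receptor (log2 difference -1.49, limma adjusted p = 0.000902). The precursor-cutting convertases Pcsk1 and Pcsk2 were lower as well (log2 differences -2.70 and -1.91). Penk, the precursor of the enkephalins that act on the mu and delta receptors, went the other way, with 139% and 151% in depressive and control cerebellum against 101% and 115% in depressive and control prefrontal cortex, a difference of 0.43 (limma adjusted p = 0.00539).

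Of 20 genes of Gi/o signalling, through which all these receptors act, 7 were higher in cerebellum, 11 lower and 2 not called, with a median of -0.31. Rgs4, which shortens Gi/o signals, was lower in cerebellum (log2 difference -2.82, limma adjusted p = 0.00024). Adcy5, an adenylyl cyclase of forebrain neurons that Gi proteins inhibit, was lower (log2 difference -1.99), as was the Gi/o family subunit Gnaz (-1.33). Adcy8, a calcium-stimulated cyclase, was higher (log2 difference 1.78), as was Rgs9 (0.84). The calls in each of these lists stand beside 72.8% over all genes. The neuron markers given above differed between the tissues too, the cerebellar ones higher and the cortical projection ones lower in cerebellum. Among 6 tested interneuron markers 4 were lower in cerebellum, with Cck at 28.6% and 53.6% in depressive and control cerebellum against 14195% and 15759% in depressive and control prefrontal cortex, but Gad1 was higher there (log2 difference 1.00) and Gad2 was not called. Markers of non-neuronal cells differed as well. All 5 tested choroid plexus markers, all 7 meningeal and 6 of 7 oligodendrocyte markers were higher in cerebellum. Choroid plexus markers summed to 17192% and 17591% in depressive and control cerebellum against 201% and 835% in depressive and control prefrontal cortex. The part of these markers in the tissue differences, those of the receptor and enzyme genes included, was not tested.

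**Figure D3:**
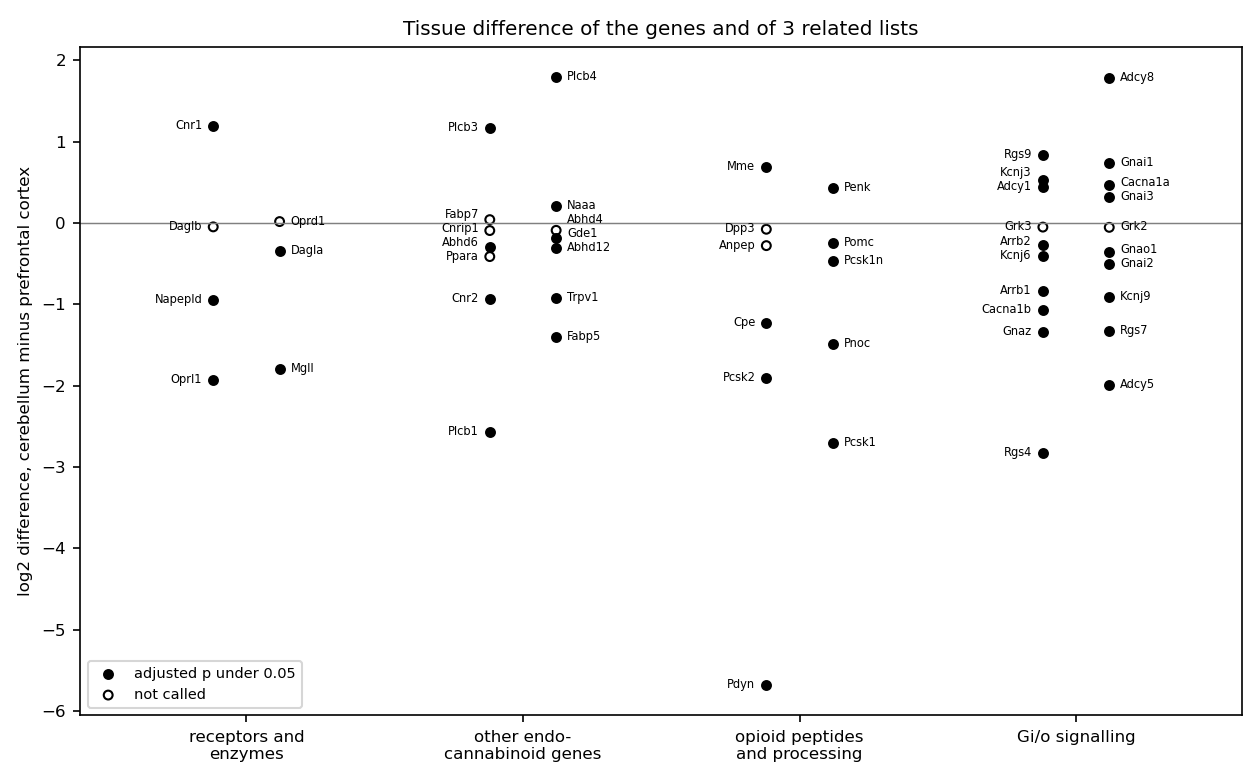
Fitted tissue difference (cerebellum minus prefrontal cortex, log2) of each tested receptor and enzyme gene and of the tested genes of the endocannabinoid, opioid peptide and Gi/o signalling lists; filled circles have an adjusted p under 0.05. Genes lie on both sides of 0 in each list, from Pdyn at -5.67 to Plcb4 at 1.79.

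The second comparison set depressive against control rats. None of the receptor and enzyme genes passed the test, and none reached 2-fold in either tissue. A limma fit of state with tissue as a block called 0 of 7 genes and 0 of all 11623 (0%), with 904 genes at an unadjusted p under 0.05 and a smallest adjusted p of 0.208. Within tissues there is 1 array per state and no test. There 0 of 8 genes differed by 2-fold or more, against 1.12% of all genes in cerebellum (96 higher and 44 lower in depressive rats, 118 and 24 under quantile normalization) and 0.789% in prefrontal cortex. With the scanner files taken as linked, 5 of 7 genes and 8458 genes in all were called for state.

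Among the receptors, Cnr1 differed by -0.08 in cerebellum and -0.05 in prefrontal cortex on the log2 scale (SE between spots 0.02 in each). The fit gave -0.06 (95% interval -0.21 to 0.08, limma adjusted p = 0.745). Its second probe differed by -0.22 (SE between spots 0.05) in cerebellum and by 0.003 in prefrontal cortex, so that the 2 probes gave different sizes in cerebellum. Oprl1 differed by 0.01 in cerebellum and -0.01 in prefrontal cortex, with a fitted difference of 0.001 (95% interval -0.14 to 0.15, limma adjusted p = 0.993). Its dimmer probes had log2 differences of -0.72 (SE between spots 0.47) and -0.31 (SE between spots 0.60) in cerebellum.

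Oprd1 had a state difference of -0.0004 in cerebellum and 0.19 in prefrontal cortex (SE between spots 0.15 and 0.14), and a fitted one of 0.10 (95% interval -0.12 to 0.31, limma adjusted p = 0.739). Oprm1 was at least 1.42-fold lower in depressive cerebellum, a log2 difference of -0.50 whose SE between spots was 0.53. In prefrontal cortex its log2 difference was 0.20 with an SE between spots of 0.42. Its other probes gave -0.04 and -0.05 in prefrontal cortex (SE between spots 0.42 and 0.36). Differences in Oprm1 of these sizes were not detectable at this signal. The negative control spots had a median of 6.99 on the depressive cerebellum array and 4.00 to 4.20 on the others. The lowest signal measured well above background was 15.2 on the depressive cerebellum array and 8.36 to 8.98 on the others.

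Among the enzymes, Dagla had the lowest fitted state difference, with -0.12 in cerebellum and -0.11 in prefrontal cortex (SE between spots 0.05 in each). The fit gave -0.12 (95% interval -0.26 to 0.03, unadjusted p = 0.0830, limma adjusted p = 0.658). Mgll differed by -0.11 in cerebellum and -0.06 in prefrontal cortex, with a fitted difference of -0.09 (95% interval -0.24 to 0.06, limma adjusted p = 0.698). Daglb differed by -0.05 in both tissues and had a fitted difference of -0.05 (95% interval -0.19 to 0.10, limma adjusted p = 0.804). Napepld differed by -0.04 in cerebellum and 0.004 in prefrontal cortex. Its second probe differed by -0.18 and -0.06 (SE between spots 0.21 and 0.14). The fit on the brightest probe gave -0.02 (95% interval -0.17 to 0.13, limma adjusted p = 0.916). These intervals rest on 1 pool per state and tissue, and if the pools of both tissues came from the same rats they hold no spread between pools of rats, so they set no limit on a change with state. In cerebellum 7 of 8 genes lay below 0, Oprd1 by only -0.0004, and Oprd1 and Napepld lay above 0 under some normalizations. Of all genes 60.6% lay below 0 there. In prefrontal cortex 5 of 8 did, against 52.8% of all genes. The medians of the 8 genes were -0.06 in cerebellum and -0.03 in prefrontal cortex, where those of all genes were -0.03 and -0.008.

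**Figure D4:**
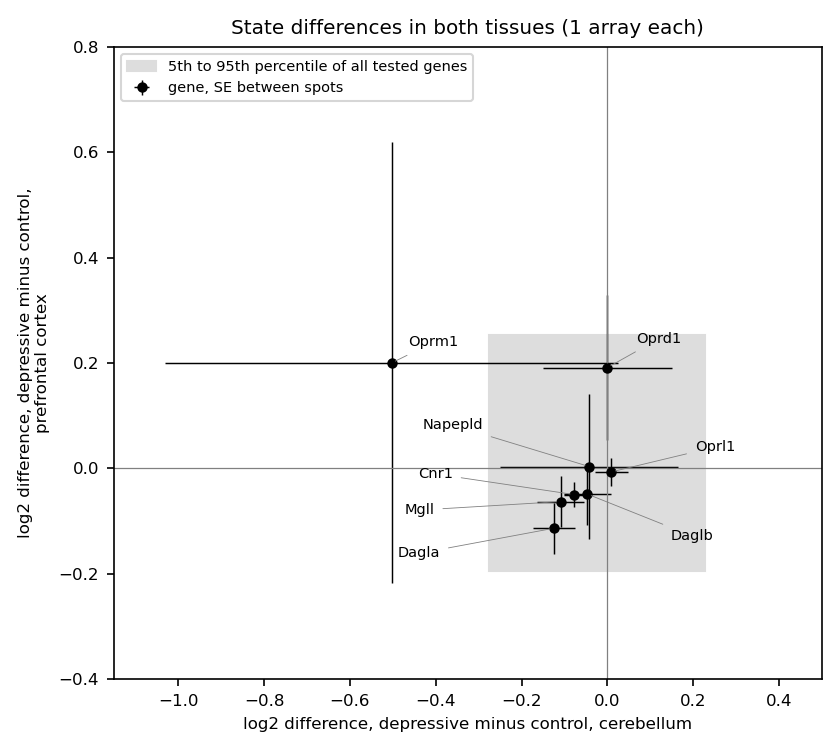
State difference (depressive minus control, log2) of 8 genes in cerebellum (x axis) and prefrontal cortex (y axis), with the SE between spots. The grey box spans the 5th to 95th percentile of all tested genes, -0.28 to 0.23 in cerebellum and -0.19 to 0.25 in prefrontal cortex. All genes but Oprm1, at -0.50 and 0.20 with wide bars, lie inside the box. Oprm1 was dimmer than the filter allows and is not among the tested genes.

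In the pathway lists the fit called 0 genes for state, with medians of -0.004 for the endocannabinoid, -0.04 for the opioid peptide and -0.06 for the Gi/o list, against -0.02 for all genes. No list gene reached 2-fold in either tissue. In cerebellum Pdyn was the farthest from 0 of those well above background on both arrays, at 0.94 (SE between spots 0.49), on signals near background. Pcsk2 differed there by -0.25 (SE between spots 0.06), Ppara, a nuclear receptor that binds fatty acid amides, by -0.32 (SE between spots 0.43), Plcb3 by -0.22, Gnaz by -0.29 and the receptor kinase Grk3 by -0.24. In prefrontal cortex Cnr2 differed by -0.33 (SE between spots 0.17), Plcb4 by 0.26, Adcy5 by -0.26, Anpep, a peptidase that degrades enkephalins, by 0.21, Penk by -0.19 and Rgs9 by 0.17. Penk lay below 0 in cerebellum too, at -0.12 (SE between spots 0.02 in each tissue).

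Markers of other cells moved with state in the same pools. The 4 red cell genes were all 2-fold or more higher in depressive rats in both tissues, with summed levels of 1221% in depressive and 277% in control cerebellum and 1936% in depressive and 481% in control prefrontal cortex. All 10 cerebellar neuron markers lay below 0 in cerebellum, with a median of -0.11, where 60.6% of all genes did. In prefrontal cortex 7 of them lay below 0 and 3 above, with a median of -0.15. Gabra6 and Pcp2 were 2.46-fold and 2.35-fold lower in depressive prefrontal cortex, and the others did not reach 2-fold. The pituitary hormone genes Gh1, Prl and Cga were at least 63.1-fold, 18.6-fold and 5.05-fold lower in depressive cerebellum. On that array they were not well above background. The other 4 of 7 pituitary markers did not reach 2-fold in cerebellum, Tshb only as a bound. Gh1 and Cga passed the background flag in control but not in depressive prefrontal cortex. As bounds, they were at least 3.40-fold and 1.80-fold lower in the depressive pool. Prl passed it in neither. Of 5 pituitary markers measured in prefrontal cortex, 3 lay below 0 and 2 above. Pituitary markers summed to 38.4% in depressive and 69.9% in control cerebellum, and 40.6% in depressive and 42.9% in control prefrontal cortex. Of 7 choroid plexus markers, 6 lay above 0 in cerebellum, with a median of 0.70. In prefrontal cortex 4 of the 6 measured there lay below 0, among them Ttr, which had 185% in depressive and 822% in control prefrontal cortex, whereas Kcnj13 and Aqp1 lay above 0 at 0.57 and 0.96. All 7 meningeal markers lay above 0 in prefrontal cortex, with summed levels of 3720% in depressive and 1879% in control prefrontal cortex. All 7 oligodendrocyte markers lay above 0 in prefrontal cortex, with a median of 0.37. Their part in the state values of the receptor and enzyme genes was not tested.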

How the data were processed

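Expression was measured on 4 single-colour Agilent arrays. Per the file headers, the software was Agilent Feature Extraction 10.7.1.1 (protocol GE1_107_Sep09) and the genome build rn4. The deposited scanner files hold, per the file headers, 1 background-subtracted processed intensity and several quality flags for each spot. The deposited value table holds a linear intensity per probe. Its scaling number and how its probes were selected are not given in the sources used here, and it served to link arrays to samples and as an alternative. On the depressive samples the description names the other tissue, and title, source name and characteristics were followed.

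Control spots and spots with outlier flags were left out, log2 intensity was averaged over a probe's spots, and the array's 75th percentile was subtracted. Probes were taken as well above background when at least 50% of their spots were flagged so, and genes when at least 1 probe was. Of 22031 probes with a RefSeq accession, 18355 were named through a RefSeq gene table, and the brightest probe stood for a gene. A fold with 1 array of the pair at background is a bound: that array was given its own signal or the lowest one measured well above background, whichever was larger. The SE between spots came from the spread of repeated spots in 20 bins of brightness.

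Tissue (state as a block) and state (tissue as a block) were fitted with limma 3.58.1 (lmFit and eBayes) in R 4.3.3 over the 11623 genes that passed this on every array, with Benjamini-Hochberg adjustment over all of them. The fit was also run on simulated data in which only a small part of the genes was given a tissue change. That setting is unlike these data, and no result of it is used here. Within a tissue or state, with 1 array per group, folds of 2 or more were counted. Alternatives were normexp background correction (on the median signal, since the files hold no mean signal), quantile and median scaling, the mean over probes, no background filter, no block term, the value table, and files as linked. Leaving out each array in turn, without the block, was added after seeing the data.

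All matched members are named; of each list, up to 4 genes with the largest tissue difference and up to 2 per tissue with the largest state difference; markers go by count and sum. Members and lists were chosen with earlier results of these data known.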

Additional observations from a re-analysis of the deposited data

How the results depend on the processing

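Under normexp, quantile and median scaling, the mean over probes, no block term and the value table, the tissue fit called the same number of receptor and enzyme genes, 5, and without the background filter 6, with Oprk1. Over these settings Cnr1 ranged from 1.11 to 1.31, Oprl1 from -1.93 to -1.63, Mgll from -1.80 to -1.71, Napepld from -0.97 to -0.76 and Dagla from -0.34 to -0.23, with adjusted p up to 0.042 for Dagla. Quantile normalization moved the median tissue difference of all genes to 0.09, against -0.02. The state fit called 5 genes under normexp. Genes at 2-fold by state in cerebellum numbered 30 under normexp, 73 in the value table and 347 without the filter, and in prefrontal cortex 14 under normexp and 259 without the filter.

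With files as linked, the tissue fit called 0 genes and 0 members, the state fit 8458 and 5. Genes at 2-fold by tissue then numbered 99 in depressive and 140 in control rats, and by state 3090 in cerebellum and 2991 in prefrontal cortex. Tissue differences turned to 0.0858 for Mgll, 0.12 for Dagla and 0.0196 for Napepld, and state differences to 1.80, 0.34 and 0.95. Within depressive rats, tissue differences turned to 0.00661 for Oprl1 and 0.0630 for Mgll, and within control rats to 0.11 for Mgll. This alternative exchanges 2 arrays.

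No analysis paired by rat was possible because each group has 1 array and the labels carry no replicate numbers. The block terms pair the arrays by state or by tissue only. Leaving out each array in turn, in fits without the block chosen after seeing the data, where the lone array of a tissue or state is assumed to vary like the others, the tissue fit called 6876 to 7653 genes and 4 to 5 members. The member lost was Dagla, without the control prefrontal cortex array. The state fit called 0 of either. Probes near background, those of Oprm1 and Oprk1, limit what these arrays can show.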
